A study of Mus musculus with 12 samples.

Results

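The comparison described here set γδ thymocytes of mice lacking Id3 (Id3KO) against γδ thymocytes of wild type (WT, B6) mice across every gene of the deposited table. It rested on 4 libraries, 2 of each genotype, taken by their labels from the 11 libraries of the table. The table held 11815 gene entries, and all of them entered the comparison. Both genotypes were sorted from thymus as TCRγδ+ CD3+ cells at 4 to 5 weeks of age. Per the series' design text, mice were on a C57BL/6 or a mixed C57BL/6 and 129 background and each library came from cells pooled from 2 to 3 mice. The paper's methods give a far smaller input of sorted γδ cells for WT than for Id3KO. Genotype and cell input therefore cannot be told apart. Id3KO mice lack Id3 in every tissue and keep Id2. The same series held CD4+ CD8+ double-positive (DP) thymocytes and invariant natural killer T (iNKT) cells of WT mice and of L-DKO mice, in which Lck-Cre removes both Id2 and Id3 in T cells. These 7 libraries served to estimate the spread between libraries and for a comparison of the effects of Id loss, and the WT iNKT group had 1 library. The letters a and b tell the 2 libraries of a group apart by column order, and pair nothing.

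Id proteins bind the E proteins (E2A, HEB and E2-2, encoded by Tcf3, Tcf12 and Tcf4) and keep them from binding DNA at E-box sites. In γδ thymocytes, strong receptor signals induce Egr factors and Id3, and mice without Id3 accumulate γδNKT cells, an innate-like population that carries a restricted γ and δ receptor pair, expresses the transcription factor PLZF and makes interferon-γ and interleukin 4. Other γδ thymocytes follow a type 17 program that depends on Sox13 and related factors, or stay uncommitted.

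Values were FPKM (fragment counts scaled to transcript length and to the sum of mapped fragments), analysed as log2(FPKM + 1). A gene was called higher or lower in Id3KO where limma's Benjamini-Hochberg adjusted p was under 0.05 over all 11815 entries, and folds are of FPKM + 1, so that the change of a weakly expressed gene is understated. The FPKM summed to 689988 and 933593 in the WT libraries and to 797395 and 676270 in the Id3KO libraries, the read depth was unknown, and between 47.0% and 65.3% of each sum went to predicted genes, receptor segments and small RNA. Every entry reached 1 FPKM in at least 5 of the 11 libraries, so genes expressed in a single population are not in the table. Since these were bulk libraries of sorted cells, fewer cells of a type and less RNA per cell cannot be told apart. Nothing in the labels separates technical from animal-to-animal spread within a pool, so p-values measure the spread between pools. That spread was shared by the γδ, DP and L-DKO iNKT libraries, so an SE also reflects cells other than γδ thymocytes.

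Id3 itself was measured first, as a check of the labels. Id3 (chromosome 4, 136143822 to 136145392, GRCm38) stood at 157 and 96.7 FPKM in the WT libraries and at 3.95 and 3.07 FPKM in the Id3KO libraries, a fall of 27.7-fold (log2 fold change -4.79, SE 0.35, limma adjusted p = 0.00049). Every WT library was far above both Id3KO libraries. Id2, the other Id gene of developing T cells, rose from 20.4 and 34.6 FPKM to 157 and 59.999 FPKM (log2 fold change 1.83, SE 0.43, limma adjusted p = 0.027). The Id3KO libraries lay above both WT libraries for Id2 but differed from each other by more than the WT libraries did. All 3 E protein genes fell. Tcf4 went from 13.4 and 18.0 FPKM to 2.23 and 3.19 FPKM (log2 fold change -2.17, SE 0.31, limma adjusted p = 0.0055). Tcf12 had a log2 fold change of -0.91 and Tcf3 one of -0.90 (limma adjusted p = 0.024 and 0.048). Id2 lost its call without WT a, without Id3KO a and in a fit of the 4 γδ libraries alone, and Tcf12 without WT b, without either Id3KO library and in that fit. Tcf3 lost its call without WT a, without either Id3KO library, in that fit and without any DP or L-DKO iNKT library.

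The sort was checked on the receptor genes. The γ constant segments Tcrg-C1, Tcrg-C2 and Tcrg-C4 stood between 213 and 495 FPKM in all 4 γδ libraries and at no more than 2.26 FPKM in the 4 DP libraries, and none was called between the genotypes. Of the CD3 complex, which carries the receptor's signal, Cd3e was at 279, 283, 302 and 326 FPKM in WT a, WT b, Id3KO a and Id3KO b, and neither it, Cd3d nor Cd3g was called. The ζ chain gene Cd247 fell from 213 and 215 FPKM to 56.2 and 49.8 FPKM (log2 fold change -1.99, SE 0.21, limma adjusted p = 0.0016). The constant segments of the δ chain and of a further γ chain were not analysed here.

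Promoter windows of 4 genes that carry the regulators at issue are given here because E proteins bind E-boxes. They run from 250 bases before to 50 after the transcription start in RefSeq (GRCm38.p6), and the genes were chosen after their values were seen: Id3, the deleted gene, Id2, its relative that rose, and Sox4 and Sox13, HMG-box factors that fell. Capitals mark CAGCTG and also the word CACCTG, whose reverse complement is CAGGTG, both searched on both strands as E-box words. The windows are Id3 at chr4:136143572-136143871 (plus strand), Id2 at chr12:25096043-25096342 (minus strand), Sox4 at chr13:28953650-28953949 (minus strand) and Sox13 at chr1:133424163-133424462 (minus strand).
Id3: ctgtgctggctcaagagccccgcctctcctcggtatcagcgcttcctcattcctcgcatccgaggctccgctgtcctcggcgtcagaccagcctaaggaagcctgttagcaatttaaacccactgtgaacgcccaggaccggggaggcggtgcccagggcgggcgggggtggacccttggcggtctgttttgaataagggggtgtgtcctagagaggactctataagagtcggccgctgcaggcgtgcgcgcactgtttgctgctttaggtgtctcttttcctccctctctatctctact
Id2: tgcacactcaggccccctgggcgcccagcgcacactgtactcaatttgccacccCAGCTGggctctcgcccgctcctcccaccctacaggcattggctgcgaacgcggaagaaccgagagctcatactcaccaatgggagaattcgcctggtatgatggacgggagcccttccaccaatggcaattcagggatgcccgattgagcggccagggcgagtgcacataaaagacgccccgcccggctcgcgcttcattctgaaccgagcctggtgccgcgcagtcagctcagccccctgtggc
Sox4: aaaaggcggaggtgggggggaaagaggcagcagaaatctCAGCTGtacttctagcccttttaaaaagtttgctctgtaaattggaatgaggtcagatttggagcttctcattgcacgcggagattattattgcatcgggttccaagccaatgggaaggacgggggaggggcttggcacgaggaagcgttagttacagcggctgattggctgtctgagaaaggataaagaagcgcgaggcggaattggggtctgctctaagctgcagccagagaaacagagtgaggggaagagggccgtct
Sox13: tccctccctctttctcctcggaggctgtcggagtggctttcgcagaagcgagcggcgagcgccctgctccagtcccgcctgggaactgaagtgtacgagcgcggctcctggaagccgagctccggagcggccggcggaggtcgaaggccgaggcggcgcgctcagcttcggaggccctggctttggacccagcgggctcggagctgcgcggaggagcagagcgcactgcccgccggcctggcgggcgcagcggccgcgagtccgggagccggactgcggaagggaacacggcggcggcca

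The Id2 window held CAGCTG 196 bases before the start, the Sox4 window held CAGCTG 211 bases before it, and the other windows held neither word. The Sox13 window lies almost wholly inside the gene span given below, so it does not describe sequence upstream of that span. These words are common: CAGCTG occurred in 16.3% of all 32851 RefSeq windows of this length, and either word in 32.9%. Among the 9801 windows of measured genes 28.8% held either word, against 30.4% of the 493 windows of genes called higher and 32.8% of the 939 windows of genes called lower. A match describes these letters only, and binding was not measured.

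Between the genotypes 1789 of the 11815 entries (15.1%) were called, 803 higher in Id3KO (6.80%) and 986 lower (8.35%). A change over 2-fold was seen for 607 of the genes called higher and 663 of those called lower, and the smallest called log2 change was 0.53 in size. The median log2 fold change of all entries was -0.080, and their median SE was 0.24. Every called gene had non-overlapping groups, which 56.6% of all entries also had. Among 9415 annotated genes the calls were 518 higher and 843 lower. A fit of the 4 γδ libraries alone called 292 higher and 344 lower, a fit without WT a called 245 and 310, and one without Id3KO b called 263 and 541. Scaling all libraries to the same total gave 741 higher and 463 lower (61.5% of calls higher, against 44.9%), and leaving out small RNA, segments and predicted genes gave 467 and 1657 (21.99%), with a median of -0.26. Leaving out either L-DKO DP library ended the calls of Id2, Tcf3, Tcf12, Tox2, Rapgef3, Il17re, Il7r, Klrd1, Tyrobp, Cd27, Pdcd1, Dusp5, Klf6, Themis, Ccr9, E2f2, Erap1, Hspa8 and Usp18 among the genes named here.

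Library Id3KO b stood apart from Id3KO a in ways the genotype does not define. On distal chromosome 16 (84718281 to 97962627, GRCm38), 46 annotated genes reached 10 FPKM in at least 1 Id3KO library, and all 46 were higher in b than in a, by a median of 3.52-fold (log2 difference 1.81, range 0.11 to 3.61). The 176 other genes of that chromosome had a median difference of 0.038 and the 6270 genes elsewhere one of 0.022. Son, a splicing factor gene of the region, stood at 168, 152, 163 and 1108 FPKM in WT a, WT b, Id3KO a and Id3KO b. The interferon receptor genes Ifnar1 and Ifnar2 and the interleukin 10 receptor gene Il10rb also lie there, and none of these was called. Of the 56 entries of the region 4 were called, and without them and chromosome Y the calls were 804 higher and 991 lower. The Y-linked gene Ddx3y was at 0.036, 32.6, 8.16 and 254 FPKM in the same order, so the pools also differed in their share of male cells or in Y-linked expression, which cannot be told apart.

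**Figure D1:**
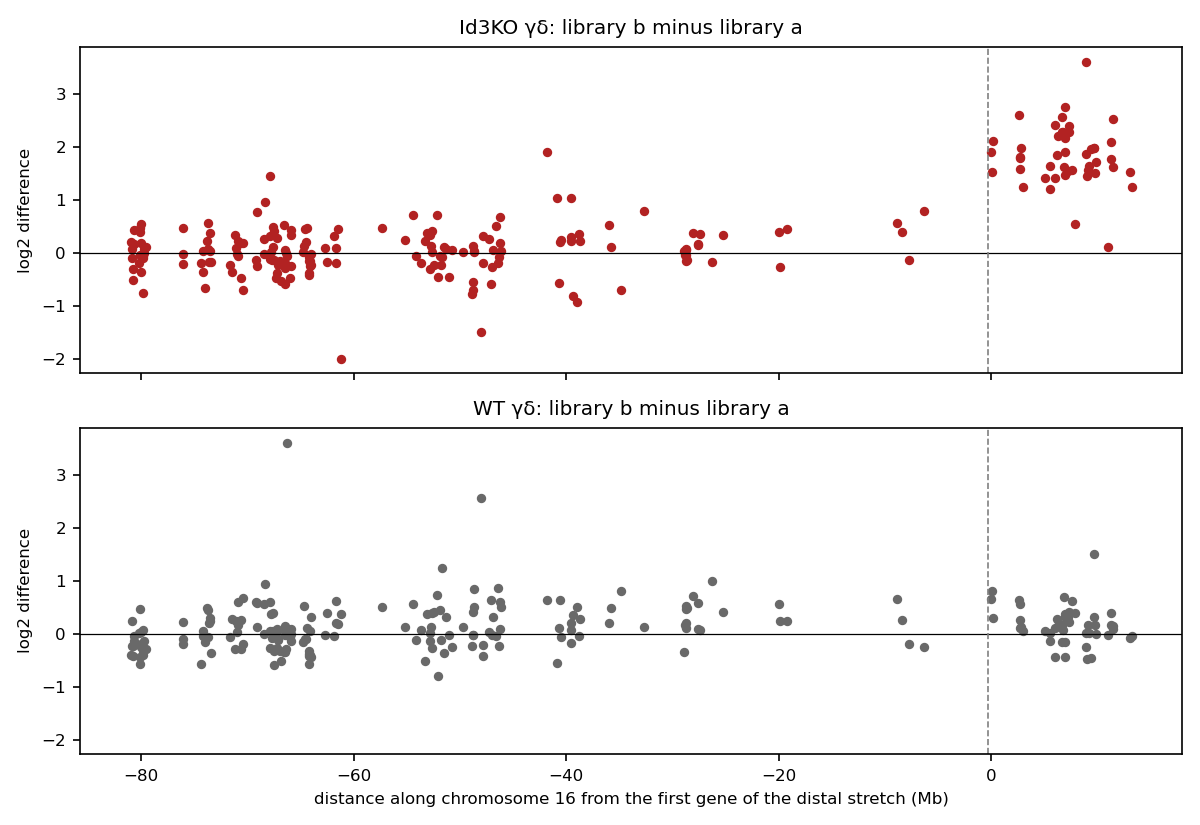
Log2 difference in FPKM + 1 between library b and library a for genes of chromosome 16 of at least 10 FPKM (each point 1 gene) against distance in Mb from the first gene of the distal region, for Id3KO (b minus a) and for WT (b minus a). In Id3KO all 46 genes right of the dashed line lie above 0, with a median of 1.81, while in WT their median is 0.15.

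Receptor variable segments differed between the genotypes. Of 18 measured γ and δ variable segments, including those shared by the α and δ loci, 2 rose and 11 fell, with a median log2 fold change of -2.91. These shares were 11.1% and 61.1%, against 6.80% and 8.35% of all entries. Trav15d-1-dv6d-1, of the Vδ6 family that γδNKT cells use, stood at 56.0 and 87.1 FPKM in WT and at 574 and 619 FPKM in Id3KO (log2 fold change 3.08, SE 0.31, limma adjusted p = 0.0014). Trav15n-1, of the same family, rose from 36.5 and 45.6 FPKM to 401 and 407 FPKM (log2 fold change 3.28, SE 0.33, limma adjusted p = 0.0014). For both segments the Id3KO libraries lay close together and several-fold above WT. The third close relative, Trav15-1-dv6-1, was at 22.7, 66.6, 105 and 20.8 FPKM in WT a, WT b, Id3KO a and Id3KO b and was not called. Near-identical copies can split reads, so the share of each copy is uncertain.

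Segments of other δ families fell, with the exceptions of Trav14d-3-dv8 and Trav6-7-dv9, which were not called (limma adjusted p = 0.41 and 0.39). Trdv2-2 went from 115 and 206 FPKM to 4.62 and 1.23 FPKM (log2 fold change -5.45, SE 0.42, limma adjusted p = 0.00055), and Trdv2-1 from 59.7 and 88.4 FPKM to a value listed at 0 and 2.46 FPKM. Trdv5 fell from 238 and 341 FPKM to 50.4 and 17.1 FPKM (log2 fold change -3.23, SE 0.48, limma adjusted p = 0.0064). Every WT library was above both Id3KO libraries for each of these. The log2 fold changes of the other segments that fell ran from -1.98 for Trav4-4-dv10 to -5.07 for Trav13-4-dv7, and included the second copies Trav15-2-dv6-2, Trav15d-2-dv6d-2 and Trav15n-2 of the Vδ6 family. Tcrg-V1, the γ segment that pairs with Vδ6 in γδNKT cells, was at 168 and 226 FPKM in WT and at 389 and 482 FPKM in Id3KO without a call (log2 fold change 1.15, SE 0.89, limma adjusted p = 0.41). For Tcrg-V1 both Id3KO libraries lay above both WT libraries, and the SE also drew on the DP and L-DKO iNKT libraries. Its log2 fold change ran from 0.94 to 1.36 as each library was left out, and whether Tcrg-V1 was called depended on which library that was. With a pseudocount of 10, 3 variable segments were called higher. Tcrg-V4 was at 152, 443, 187 and 124 FPKM in WT a, WT b, Id3KO a and Id3KO b. Without WT a 2 segments were called higher and 7 lower, and Trav15-2-dv6-2, Trav15d-2-dv6d-2 and Trav4-4-dv10 lost their calls without either WT library and in the fit of γδ libraries alone, as did Trav4-4-dv10 without Id3KO a and Trav13-4-dv7 without WT a.

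**Figure D2:**
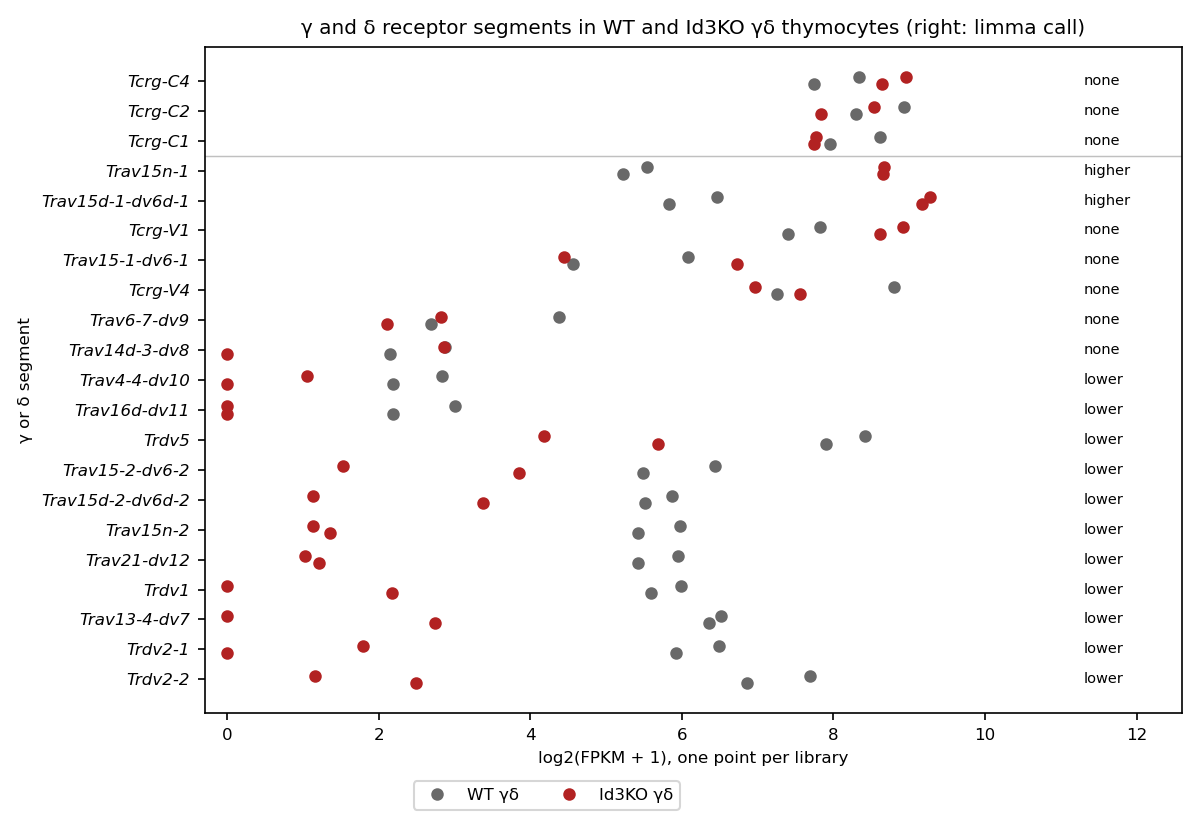
FPKM of the measured γ constant segments and γ and δ variable segments in each WT and Id3KO γδ library (1 point each, log axis of FPKM + 1), with the limma call at the right. Trav15d-1-dv6d-1 and Trav15n-1 are the 2 segments called higher, and 11 are called lower.

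Genes of the innate-like T cell program differed in part. A signature that the study compiled from separate microarrays of sorted thymocytes (genes higher or lower in both iNKT and γδNKT cells than in other thymocytes) served as a list made from other samples. Of its 100 measured genes published as higher, 35 rose and 1 fell, with a median log2 fold change of 0.81, against 6.80% higher and a median of -0.080 over all entries. Of its 41 measured genes published as lower, none rose and 34 fell, with a median of -1.94, against 8.35% lower over all entries. Without WT a the counts were 25 of the 100 and 18 of the 41, and without Id3KO b 25 and 23. The median stayed positive for the first list and negative for the second under every alternative named so far.

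Zbtb16 (chromosome 9, 48651797 to 48836225, GRCm38) encodes PLZF, the factor that directs innate-like T cell development, and had the largest rise among the called genes of the first list. It stood at 24.0 and 9.69 FPKM in WT and at 171 and 135 FPKM in Id3KO, 9.37-fold higher (log2 fold change 3.23, SE 0.36, limma adjusted p = 0.0022). Lpcat4, a lysophospholipid acyltransferase gene, had a log2 fold change of 3.01, and Cd40lg, the CD40 ligand gene, one of 2.93. Ttc39c (2.86), Cntnap1 (2.81), Pde2a (2.75), the TNF family regulator Litaf (2.01), the SLAM receptor gene Slamf6 (1.90), the costimulator gene Cd28 (1.80) and the adaptor gene Traf5 (1.36) also rose on that scale. Trf, the transferrin gene, was the exception and fell by 2.02. Litaf lost its call without WT a, and Trf without either WT library, without Id3KO b and in the fit of γδ libraries alone.

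The second list held genes of conventional and immature thymocytes. Etv5, an ETS family factor gene (chromosome 16, 22381313 to 22439570, GRCm38, outside the distal region), fell from 125 and 123 FPKM to 8.51 and 3.21 FPKM (log2 fold change -4.30, SE 0.51, limma adjusted p = 0.0026). Rasgrp1, which activates Ras below the T cell receptor (chromosome 2, 117279983 to 117342877), went from 221 and 242 FPKM to 31.0 and 29.3 FPKM (log2 fold change -2.90, SE 0.16, limma adjusted p = 0.00015). For both genes every WT library was several-fold above both Id3KO libraries. Endou (-3.52), Rapgef3 (-3.11), Nck2, an adaptor gene of receptor signalling (-2.66), Igf1r (-2.15) and Thy1 (-1.22) fell as well. Endou and Rapgef3 lost their calls when any 1 of the 4 γδ libraries was left out, and Thy1 without WT a and in the fit of γδ libraries alone.

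**Figure D3:**
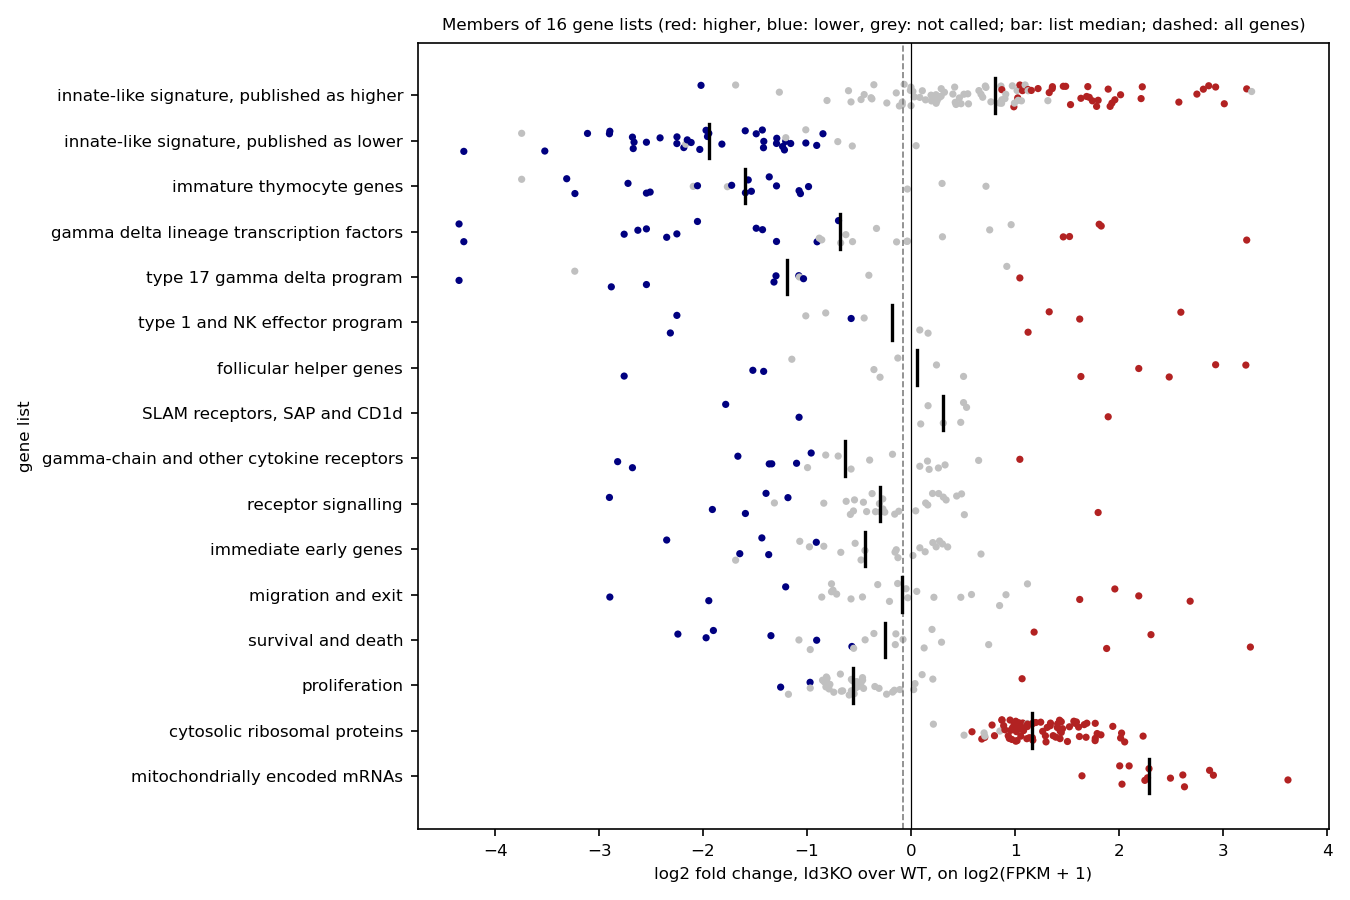
Log2 fold change (Id3KO minus WT γδ, log2(FPKM + 1) scale) of each measured member of 16 gene lists, 1 point a gene, red where called higher, blue where called lower and grey where not called, with a bar at each list's median and a dashed line at the median of all genes (-0.080). The genes published as lower in innate-like cells lie almost wholly below 0, and those published as higher lie mostly above it.

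Transcription factors of the γδ lineages split. Of 30 measured, 5 rose and 13 fell (16.7% and 43.3%, against 6.80% and 8.35% of all entries). The median log2 fold change was -0.69. Beside Zbtb16 and Id2, the rises were the receptor-induced factors Egr2 and Egr3 and Myc, a driver of cell growth. Egr2 went from 10.6 and 6.19 FPKM to 22.1 and 26.4 FPKM (log2 fold change 1.46, SE 0.27, limma adjusted p = 0.013), and Egr3 and Myc had log2 fold changes of 1.81 and 1.52. Both Id3KO libraries were above both WT libraries for each. Without WT a 2 of the factors were called higher and 7 lower, and without Id3KO b 2 and 9. Egr3 and Myc lost their calls when any 1 of the 4 γδ libraries was left out, and Egr2 without Id3KO b and in the fit of γδ libraries alone.

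Sox13, an HMG-box factor of γδ cells and of their type 17 program (chromosome 1, 133382300 to 133424459), had the largest fall of the list. It stood at 284 and 202 FPKM in WT and at 23.7 and 4.66 FPKM in Id3KO (log2 fold change -4.35, SE 0.61, limma adjusted p = 0.005). Sox4, a relative that also acts upstream of type 17 γδ cells, fell from 89.8 and 56.1 FPKM to 15.3 and 17.4 FPKM (log2 fold change -2.05, SE 0.27, limma adjusted p = 0.0042). The third HMG-box gene, Tcf7, encodes TCF1 and fell from 479 and 539 FPKM to 202 and 211 FPKM (log2 fold change -1.29, SE 0.15, limma adjusted p = 0.0026). Lef1, which encodes its close relative LEF1, was at 248, 219, 227 and 228 FPKM in WT a, WT b, Id3KO a and Id3KO b, with overlapping groups and no call. Thus within this family the 3 falls ranged from 2.45-fold to 20.3-fold, while Lef1 had a log2 difference of -0.035 (SE 0.16).

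Among the remaining factors, Bach2, a repressor of effector genes, went from 43.6 and 33.0 FPKM to 2.91 and 9.17 FPKM (log2 fold change -2.63, SE 0.46, limma adjusted p = 0.011). Tox2 fell by 2.76 on the log2 scale at a limma adjusted p of 0.049, Id3KO a held 14.2 FPKM of it against 1.48 FPKM in b, and it lost its call without any 1 of WT a, WT b or Id3KO b and in the fit of γδ libraries alone. Bcl11b, a factor of T lineage commitment, and Gata3, needed for T cell and type 2 development, fell with log2 fold changes of -1.49 and -1.43. Gata3 lost its call without any 1 of WT a, WT b or Id3KO b and in the fit of γδ libraries alone, and Bach2 without WT a. Tox2, unlike Gata3, also lost its call without any 1 DP library, with a common median and with a pseudocount of 0.1. Runx1, which lies on distal chromosome 16 where Id3KO b stood apart, was at 86.3, 114, 54.8 and 81.3 FPKM in WT a, WT b, Id3KO a and Id3KO b and was not called (log2 fold change -0.56, and -0.84 without Id3KO b, limma adjusted p = 0.13 and 0.073).

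**Figure D4:**
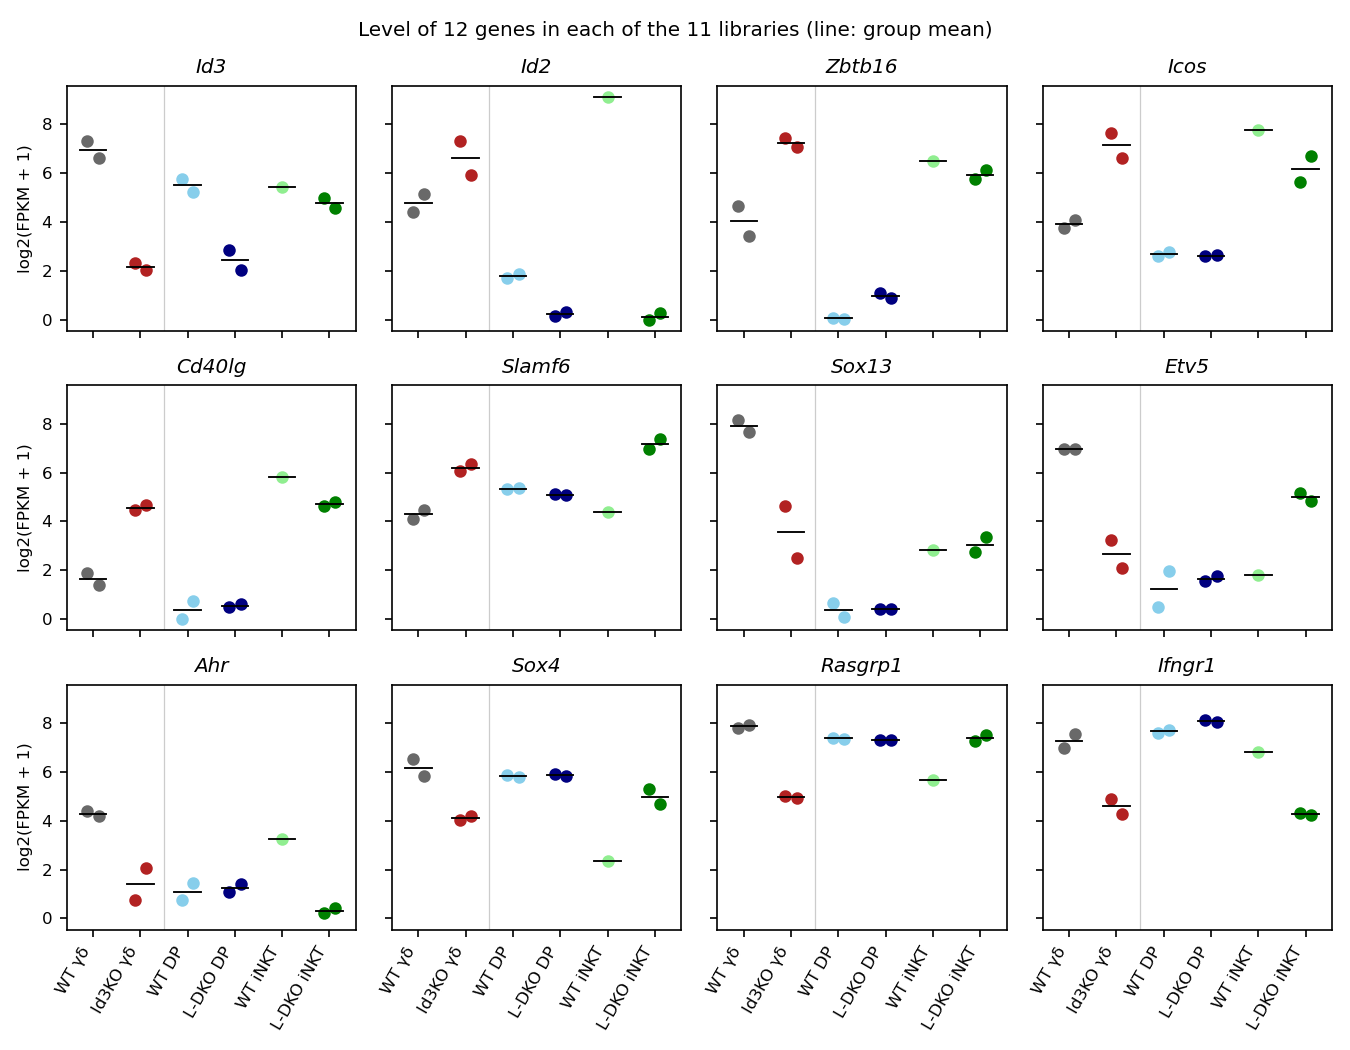
Level of 12 genes as log2(FPKM + 1) in each of the 11 libraries, 1 point a library, grouped as WT and Id3KO γδ, WT and L-DKO DP, and WT and L-DKO iNKT, with a line at each group mean. Zbtb16, Icos, Cd40lg and Slamf6 are higher in both Id3KO γδ libraries than in both WT ones, and Sox13, Etv5, Ahr, Sox4, Rasgrp1 and Ifngr1 are lower.

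The type 17 program was lower in most of its measured genes. Of 12 measured, 1 rose and 7 fell (8.33% and 58.3%, against 6.80% and 8.35% of all entries). The median log2 fold change was -1.19. A further 11 listed genes, among them Il17a, Il23r, Ccr6 and Maf, had no entry. Beside Sox13, Ahr, a ligand-activated factor of type 17 cells, went from 20.05 and 17.1 FPKM to 0.70 and 3.13 FPKM (log2 fold change -2.88, SE 0.41, limma adjusted p = 0.0053). Tmem176a and Tmem176b, membrane protein genes that type 17 cells express, fell with log2 fold changes of -1.30 and -1.32, as did Il17re, a receptor chain gene (-1.08), and Stat3, which carries signals of interleukin 6 and its relatives (-1.03). The Il17re call was also lost with either pseudocount, with limma's trend and with quantile normalization. Il7r, the interleukin 7 receptor gene, rose from 40.2 and 49.6 FPKM to 88.6 and 98.2 FPKM (log2 fold change 1.05, SE 0.28, limma adjusted p = 0.044). The cytokine gene Il17f was at 3.04, 3.68, 1.36 and 3.57 FPKM in WT a, WT b, Id3KO a and Id3KO b and was not called. Without WT a or without Id3KO b the calls were 0 higher and 3 lower. Il7r lost its call without any 1 of the 4 γδ libraries, Il17re without either WT library or Id3KO b, Stat3 without WT a or Id3KO b, Tmem176a without WT a and Tmem176b without WT b or Id3KO b.

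The type 1 and natural killer (NK) effector list moved in both directions. Of 12 measured, 4 rose and 3 fell (33.3% and 25%, against 6.80% and 8.35% of all entries), with a median of -0.18. A further 26 listed names, among them Tbx21, Ifng and Prf1, had no entry. Klrd1, which encodes the NK receptor CD94, rose from 3.70 and 9.35 FPKM to 48.0 and 35.2 FPKM (log2 fold change 2.59, SE 0.63, limma adjusted p = 0.031). The chemokine receptor gene Cxcr6 rose from 14.99 and 30.7 FPKM to 60.9 and 76.5 FPKM (log2 fold change 1.62, SE 0.32, limma adjusted p = 0.015). Cd160 and the cathepsin gene Ctsw rose by 1.33 and 1.13 on the log2 scale. Stat4, which carries interleukin 12 signals, fell from 32.4 and 43.1 FPKM to 9.72 and 5.06 FPKM (log2 fold change -2.25, SE 0.33, limma adjusted p = 0.0063). The adaptor gene Tyrobp (-2.31) and Cd27 (-0.58) fell as well. Gzma, the granzyme A gene, was at 184, 301, 204 and 66.2 FPKM and Il2rb at 105, 63.4, 106 and 70.8 FPKM in WT a, WT b, Id3KO a and Id3KO b, with overlapping groups and no call. Klrd1 lost its call without WT a and without either Id3KO library, Cxcr6 without WT a or Id3KO b, and Tyrobp and Ctsw without WT b or either Id3KO library. Cd160 lost its call without WT a and Cd27 without WT a or either Id3KO library, and in the fit of γδ libraries alone only Klrd1 and Stat4 were called.

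The type 2 and follicular helper lists shared their leading gene. Icos, a costimulatory receptor gene of both cell types (chromosome 1, 60960773 to 61000322), rose from 12.4 and 16.2 FPKM to 199 and 98.8 FPKM (log2 fold change 3.22, SE 0.41, limma adjusted p = 0.0036). Of 5 measured type 2 genes Icos rose and Gata3 and the interleukin 4 receptor gene Il4ra (-1.34) fell. These shares were 20% and 40%, against 6.80% and 8.35% of all entries. Another 10 listed type 2 genes, among them Il4 and Il13, had no entry. Of 14 follicular helper genes 5 rose and 3 fell (35.7% and 21.4%, against 6.80% and 8.35% of all entries), with a median of 0.059. Cd40lg went from 2.71 and 1.61 FPKM to 21.3 and 24.3 FPKM (log2 fold change 2.93, SE 0.27, limma adjusted p = 0.0011). Folr4, the folate receptor 4 gene, rose from 32.0 and 26.5 FPKM to 174 and 162 FPKM (log2 fold change 2.48, SE 0.37, limma adjusted p = 0.0066). For Icos, Cd40lg and Folr4 both Id3KO libraries lay several-fold above both WT libraries. Cxcr5, the receptor that draws cells to follicles, rose by 2.19 from less than 1 FPKM in WT, and the inhibitory receptor gene Btla rose by 1.63. Bcl6, the master factor of follicular helper cells, and the inhibitory receptor gene Pdcd1 fell with log2 fold changes of -1.52 and -1.42, so the list did not move one way. None of the 3 falls was called without WT a or without Id3KO b, nor was the rise of Cxcr5.

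Among 9 SLAM family and CD1d genes, which act in the selection of innate-like T cells, 1 rose and 2 fell. These shares were 11.1% and 22.2%, against 6.80% and 8.35% of all entries. Slamf6 (chromosome 1, 171917458 to 171948958) went from 16.3 and 21.4 FPKM to 65.6 and 79.6 FPKM (log2 fold change 1.90, SE 0.21, limma adjusted p = 0.002), while Slamf1 (-1.78) and Cd1d1, which encodes the antigen-presenting molecule of iNKT selection (-1.08), fell. Sh2d1a, which encodes their adaptor SAP, was at 27.7, 67.8, 69.1 and 55.7 FPKM in WT a, WT b, Id3KO a and Id3KO b and was not called. Cd1d1 lost its call without WT a or Id3KO b and in the fit of γδ libraries alone.

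Receptor signalling genes were mostly uncalled: of 33 measured, 1 rose and 5 fell, with a median of -0.29. These shares were 3.03% and 15.2%, against 6.80% and 8.35% of all entries. Cd28 rose from 44.2 and 59.99 FPKM to 204 and 162 FPKM (log2 fold change 1.80, SE 0.20, limma adjusted p = 0.0021). Beside Rasgrp1, the falls included Ubash3a, a brake on receptor signals (-1.91), and Themis, which sets the signal threshold in thymocytes (-1.59). Lck, Zap70 and Lat, the kinases and scaffold next to the receptor, were not called, with log2 differences of -0.37, 0.16 and -0.58. Of 25 genes of the immediate early list none rose and 5 fell (0% and 20%, against 6.80% and 8.35% of all entries). Egr2, Egr3 and Myc, which rose, were counted with the lineage factors and were not in this list. Nr4a1, induced within minutes of receptor signals, went from 67.2 and 43.6 FPKM to 8.98 and 10.7 FPKM (log2 fold change -2.35, SE 0.31, limma adjusted p = 0.004). Dusp6 and Dusp5, phosphatases that end ERK signals (-1.65 and -1.37), Tnfaip3, an inhibitor of NF-κB (-1.43), and Klf6 (-0.91) were the others. Egr1 and Fos were not called, with log2 differences of 0.30 and 0.27, beside the rises of Egr2 and Egr3. Without WT a 1 of the receptor signalling genes and 2 of the immediate early genes were called lower. Ubash3a and Dusp6 lost their calls without WT a, Klf6 without either WT library or Id3KO b, and Themis and Dusp5 when any 1 of the 4 γδ libraries was left out.

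Of 20 measured cytokine receptor genes Il7r rose and 7 fell (5% and 35%, against 6.80% and 8.35% of all entries), with a median of -0.64. Ifngr1, which encodes the ligand-binding chain for interferon-γ, went from 125 and 188 FPKM to 29.0 and 18.4 FPKM (log2 fold change -2.68, SE 0.26, limma adjusted p = 0.0013). Il10ra, of the interleukin 10 receptor, went from 14.3 and 9.95 FPKM to 1.28 and 0.47 FPKM (log2 fold change -2.82, SE 0.25, limma adjusted p = 0.00088). Neither gene had any overlap between the genotypes. Il6st, the shared chain of the interleukin 6 family, had a log2 fold change of -1.67, Il2ra one of -1.36 and Il4ra one of -1.34. Il6st lost its call without WT a or WT b, and Il4ra without Id3KO b. Il7r lost its call when any 1 of the 4 γδ libraries was left out. In the fit of γδ libraries alone 3 of these were called lower and none higher.

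Immature thymocyte genes were lower in most cases. Of 21 measured, none rose, 15 fell (71.4%, against 8.35% of all entries) and 6 were not called, with a median of -1.59. Arpp21, a phosphoprotein gene of immature thymocytes, went from 79.7 and 119 FPKM to 13.6 and 5.73 FPKM (log2 fold change -3.31, SE 0.36, limma adjusted p = 0.0018). Cd24a, whose product is lost as thymocytes mature, went from 36.9 and 72.8 FPKM to 2.49 and 8.07 FPKM (log2 fold change -3.23, SE 0.59, limma adjusted p = 0.013). Rag1, of the receptor recombinase, fell from 84.9 and 112 FPKM to 29.2 and 6.36 FPKM (log2 fold change -2.72, SE 0.54, limma adjusted p = 0.017). The WT libraries exceeded both Id3KO libraries for each, and Id3KO b was the lowest for Arpp21 and Rag1. Dntt, the terminal transferase gene, was at 101 and 112 FPKM in WT and at 10.7 and 4.50 FPKM in Id3KO but was not called (log2 fold change -3.74, SE 1.09, limma adjusted p = 0.056). Its groups did not overlap, and its SE also drew on the DP and L-DKO iNKT libraries. Without WT a 7 of the 21 were called lower, without WT b 8 and without Id3KO b 9, and Rag1 lost its call without either WT library and Cd24a without WT b. Markers of DP thymocytes, a list that shares Arpp21, Rag1 and other members with this one, moved in the same direction, with 8 of 13 lower (3 without WT a): their summed FPKM was 1143 and 1415 in the WT libraries and 666 and 637 in the Id3KO libraries, against 6230 to 6571 in the DP libraries. The αβ receptor gene segment Trbc2 fell by 1.08, a call lost when any 1 of the 4 γδ libraries was left out, and Trac was not called. The part of other thymocytes in these falls was not tested.

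Of 26 migration genes 4 rose and 3 fell (15.4% and 11.5%, against 6.80% and 8.35% of all entries), with a median of -0.088 beside -0.080 over all entries. Klf3 (-1.94) and the thymic chemokine receptor gene Ccr9 (-1.21) were among the falls. Ly6c2 rose by 2.68, Cxcr5 by 2.19 and Ccr10 by 1.96, while S1pr1, which drives exit from the thymus, was at 38.5, 36.3, 23.2 and 38.05 FPKM in WT a, WT b, Id3KO a and Id3KO b with no call. Ly6c2 lost its call without WT a or Id3KO a, Cxcr5 without WT a or Id3KO b, and Ccr9 when any 1 of the 4 γδ libraries was left out. Without WT a 1 of the 26 was called higher and 2 lower.

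Survival genes of the BCL2 family moved both ways. Of 22 survival and death genes 4 rose and 6 fell (18.2% and 27.3%, against 6.80% and 8.35% of all entries), with a median of -0.25. Bcl2a1b, which encodes the protective protein A1, went from 3.28 and 7.44 FPKM to 60.1 and 53.5 FPKM (log2 fold change 3.26, SE 0.40, limma adjusted p = 0.0029), and its near-identical copy Bcl2a1a rose by 2.31, so that their separate shares are uncertain. Bcl2 fell from 47.7 and 48.6 FPKM to 15.8 and 9.32 FPKM (log2 fold change -1.90, SE 0.36, limma adjusted p = 0.014). The groups were well apart for all of these. The protective genes Bcl2l2 and Bcl2l1 fell with log2 fold changes of -2.24 and -1.35. Of the genes that promote death, Pmaip1 (NOXA) and Fas rose by 1.88 and 1.18 and Bmf fell by 1.97. Without WT a 2 of the 22 were called higher and 2 lower. Bcl2a1a lost its call without WT a, Bcl2 without either WT library or Id3KO b, Bcl2l1 without either WT library and Fas without WT a or Id3KO b.

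Cell cycle genes hardly reached the threshold: of 40 proliferation genes Ccne1 rose by 1.07 and E2f2 and Cenpf fell (-1.25 and -0.97), while 35 of the 40 had a negative sign and the median was -0.55. That median was -0.18 without Id3KO b, with no lower call, and -0.92 without Id3KO a, with 12 lower calls. Of 11 D-type cyclin genes and their partners none rose and 4 fell, among them Ccnd3 from 217 and 230 FPKM to 95.8 and 92.1 FPKM (log2 fold change -1.24, SE 0.17, limma adjusted p = 0.0046), and without WT a, Id3KO b or either L-DKO DP library 1 of the 11 was called lower. Of 25 interferon response genes 1 fell (Usp18, by 2.37), and of 18 genes of MHC class I presentation 1 rose (Erap1, by 0.72). Glycolysis genes had a median of 0.48, with Pgam1, Pgk1 and Pfkp called higher (1.30, 1.21 and 1.16) and Pfkm lower (-0.95) of 18. Heat shock chaperones had 3 of 12 higher, Hspa1b by 1.54, Hspe1 by 1.44 and Hspa8 by 0.76. GIMAP genes had 1 of 8 higher (Gimap4, 1.15) and 1 lower (Gimap8, -0.87). The shares called higher and lower were 2.5% and 5% (proliferation), 0% and 36.4% (D-type cyclins and partners), and 0% and 4% (interferon response). They were 5.56% and 0% (MHC class I), 16.7% and 5.56% (glycolysis), 25% and 0% (heat shock), and 12.5% each (GIMAP). Over all entries they were 6.80% and 8.35%. In the fit of γδ libraries alone no heat shock, glycolysis, GIMAP, interferon response or MHC class I gene was called. Without Id3KO b no heat shock gene and 1 glycolysis gene were called higher. Of the genes named among these lists Ccnd3, Gimap4 and Pfkp kept their calls when any 1 of the 4 γδ libraries was left out, and the others did not.

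Genes were named by a rule given with the processing. Those named outside it, chosen after their values were seen, were Tcf3, Son, Ifnar1, Ifnar2, Il10rb, Ttc39c, Cntnap1, Pde2a, Litaf, Traf5, Trf, Nck2, Igf1r, Thy1, Egr3, Myc, Bach2, Bcl11b, Tmem176a, Tmem176b, Il17re, Stat3, Il17f, Cd160, Ctsw, Cd27, Btla, Bcl6, Pdcd1, Sh2d1a, Lck, Zap70, Lat, Dusp5, Klf6, Egr1, Fos, Klf3, Ccr9, S1pr1, Bcl2, Bcl2l1, Pmaip1, Fas, Erap1, Pfkm and Hspa8.

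Across all annotated genes, the largest rises past the naming rule (a called gene whose higher group averaged 10 FPKM or more, with no overlap) were those of Klra9, Map2, Pcsk1 and Stc2. Klra9, of the Ly49 family of NK receptors, whose near-identical copies make its level uncertain, went from 0.96 and 1.56 FPKM to 170 and 22.7 FPKM (log2 fold change 4.83, SE 1.03, limma adjusted p = 0.021). Map2, a microtubule-associated protein gene, went from 0.91 and 1.24 FPKM to 34.2 and 44.2 FPKM (log2 fold change 4.27, SE 0.40, limma adjusted p = 0.0011). Stc2, which encodes the secreted glycoprotein stanniocalcin, went from 0.26 and 0.26 FPKM to 18.0 and 23.2 FPKM (log2 fold change 4.09, SE 0.21, limma adjusted p = 0.00015). Map2 and Stc2 were near absent from both WT libraries and alike in the Id3KO libraries, while Klra9 differed several-fold between the latter. The prohormone convertase gene Pcsk1 (4.12), the neurotrophin receptor gene Ntrk3 (3.78), Rnf43, a ubiquitin ligase that removes Wnt receptors (3.73), the mitochondrial gene mt-Atp8 (3.62), the metalloprotease gene Adam19 (3.53), Bcl2a1b (3.26) and the protease-activated receptor gene F2rl1 (3.26) were the others of the 10.

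The 10 largest falls were led by Id3 (-4.79), Tmem121 (-4.58), Sox13 and Etv5. Tmem121, a transmembrane protein gene, went from 41.8 and 29.5 FPKM to 0.81 and 0.26 FPKM (SE 0.38, limma adjusted p = 0.0007). Igfbp4, a binding protein of insulin-like growth factors, went from 192 and 112 FPKM to 18.0 and 2.66 FPKM (log2 fold change -4.15, SE 0.70, limma adjusted p = 0.01). Smo, the Hedgehog signal transducer (-4.004), the apolipoprotein gene Apoe (-3.74), Endou (-3.52), the lysozyme gene Lyz2 (-3.49) and the myosin gene Myo6 (-3.41) completed the 10. In Tmem121, Igfbp4, Sox13, Smo and Myo6 the lower of the Id3KO libraries was b. Pcsk1 lost its call when any 1 of the 4 γδ libraries was left out, Klra9 without either WT library or Id3KO a, Myo6 without either WT library, and Smo, Igfbp4 and Adam19 without WT a.

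Myeloid markers moved with the falls. Lyz2 is a marker of macrophages and granulocytes, and of 9 measured myeloid and dendritic markers 5 fell, with summed FPKM of 295 and 336 in WT and 64.1 and 89.0 in Id3KO. The falls were 55.6% of these markers, against 8.35% of all entries. Cd74, of the MHC class II pathway, went from 85.6 and 81.4 FPKM to 6.76 and 14.9 FPKM (log2 fold change -2.93, limma adjusted p = 0.015), a call lost without either WT library or Id3KO a. Of 3 B cell markers Cd79b fell by 1.58, while Igkc ranged from 1.47 FPKM in Id3KO a to 309 FPKM in Id3KO b. Of 5 erythroid markers none was called, and of 3 stromal markers Pecam1 fell by 1.59. The shares called lower were 33.3% of B cell markers, 33.3% of stromal markers and 0% of erythroid markers, against 8.35% of all entries. Of 5 measured NK and innate lymphoid markers Klra9, Id2 and Il7r rose and Tyrobp fell. These shares were 60% and 20%, against 6.80% and 8.35% of all entries. The summed FPKM of these markers was 80.9 and 135 in WT and 428 and 194 in Id3KO. Most of the Id3KO a sum came from Klra9, Id2 and Il7r, and the last 2 are also members of other lists above. A further 9 listed NK markers, among them Ncr1, Klrb1c and Eomes, had no entry. The same was true of 9 myeloid, 8 B cell, 5 erythroid and 10 stromal markers. Without WT a 2 of the myeloid markers were called lower and none of the NK markers higher. The part of these other cells in the falls of Apoe, Lyz2 and Tyrobp and in the rises of Klra9 and Klrd1 was not tested.

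Short transcripts and abundant housekeeping RNA also differed between the genotypes. Of 82 cytosolic ribosomal protein genes 76 were called higher (92.7%) and none lower, with a median log2 fold change of 1.17. The shares over all entries, to set beside the counts of this paragraph, were 6.80% higher and 8.35% lower. With quantile normalization 30 of the 82 ribosomal genes were called higher. The ribosomal genes took 2.62% and 2.53% of all FPKM in the WT libraries against 5.61% and 7.31% in the Id3KO libraries. All 13 mitochondrially encoded mRNAs were called higher, with a median of 2.29. mt-Atp8 stood at 548, 1390, 9848 and 11793 FPKM in WT a, WT b, Id3KO a and Id3KO b. Of 106 small RNA entries 45 were called higher and none lower, with 10 higher without WT a, 23 without Id3KO b and 61 in the fit of γδ libraries alone. Genes with transcripts up to 1000 nt had a median of 0.27 (16.6% higher, 2.22% lower), and genes with transcripts over 4000 nt one of -0.19 (3.499% higher, 11.98% lower). With a trend on transcript length removed from each library the calls were 611 higher and 943 lower of 9438 genes. Without WT a 33 ribosomal genes were called higher, without Id3KO b 19 ribosomal and 5 mitochondrial genes, and in the fit of γδ libraries alone 7 and 5. The part of RNA quality or of cell input was not tested.

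The effect of Id3 loss in γδ thymocytes was set beside the effects of Id2 and Id3 loss in DP and iNKT cells, which differ from it in the genes deleted. Loss of both genes called 21 entries in DP thymocytes (0.178%) and 717 in iNKT cells (6.07%), the latter against a single WT library. Of the 1789 genes called in γδ thymocytes 12 were also called in DP thymocytes and 265 in iNKT cells, with opposite signs for 5 and 89 of these. A direct test of the difference between the effects, in the same limma fit, called 298 entries (2.52%) for γδ against DP and 780 (6.60%) for γδ against iNKT. These differences were found for 15.7% and 27.6% of the γδ calls.

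Against DP thymocytes, the effect in γδ cells was more negative for Rasgrp1, Tcf7, Sox4, Sox13, Etv5, Ifngr1, Ahr and Nr4a1. It was more positive for Icos, Cd40lg, Slamf6 and Cd28. Each of these differences had a limma adjusted p under 0.05. For Rasgrp1 the log2 effect was -2.90 in γδ and -0.056 in DP (difference -2.84, limma adjusted p = 0.0021). The Slamf6 effect was 1.90 in γδ and -0.25 in DP (difference 2.15, limma adjusted p = 0.014). The expression of several of these genes in DP thymocytes was near 0: Sox13 was at no more than 0.56 FPKM in the DP libraries, so a fall there could not have been seen. For Zbtb16 the effects were 3.23 and 0.91, and their difference was not called (limma adjusted p = 0.062).

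Against iNKT cells several genes moved in opposite directions, each effect being called in its own population. Etv5 fell by 4.30 in γδ cells and rose by 3.16 in iNKT cells (difference -7.46, limma adjusted p = 0.0035). Sox4 fell by 2.05 and rose by 2.65 (difference -4.70, limma adjusted p = 0.0028), and Tcf7, Rasgrp1, Nr4a1 and Il6st likewise fell in γδ cells and rose in iNKT cells, by 1.14, 1.73, 2.35 and 3.45 in the latter. In the other direction Klrd1, Cxcr6, Il7r and Bcl2a1b rose in γδ cells and had log2 effects of -4.79, -4.80, -4.23 and -3.36 in iNKT cells. The WT iNKT library held 553 FPKM of Id2 and 125 to 217 FPKM of the γ constant segments, against no more than 18.5 FPKM of those segments in the L-DKO iNKT libraries, so that library differs from the L-DKO libraries in its content of γ receptor transcripts too. Other genes had the same sign and were called in both: Slamf6 (1.90 and 2.79), Egr2 (1.46 and 2.70), Cd28 (1.80 and 1.19), Stc2 (4.09 and 3.86) and Cxcr5 (2.19 and 3.01) rose, and Ifngr1 (-2.68 and -2.55), Ahr (-2.88 and -2.94), Il10ra (-2.82 and -2.98) and Il2ra (-1.36 and -1.41) fell. For these 9 genes the difference between γδ and iNKT cells was not called. Zbtb16 had effects of 3.23 in γδ and -0.54 in iNKT cells, where both genotypes held 53.4 to 88.7 FPKM (difference 3.77, limma adjusted p = 0.012).

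**Figure D5:**
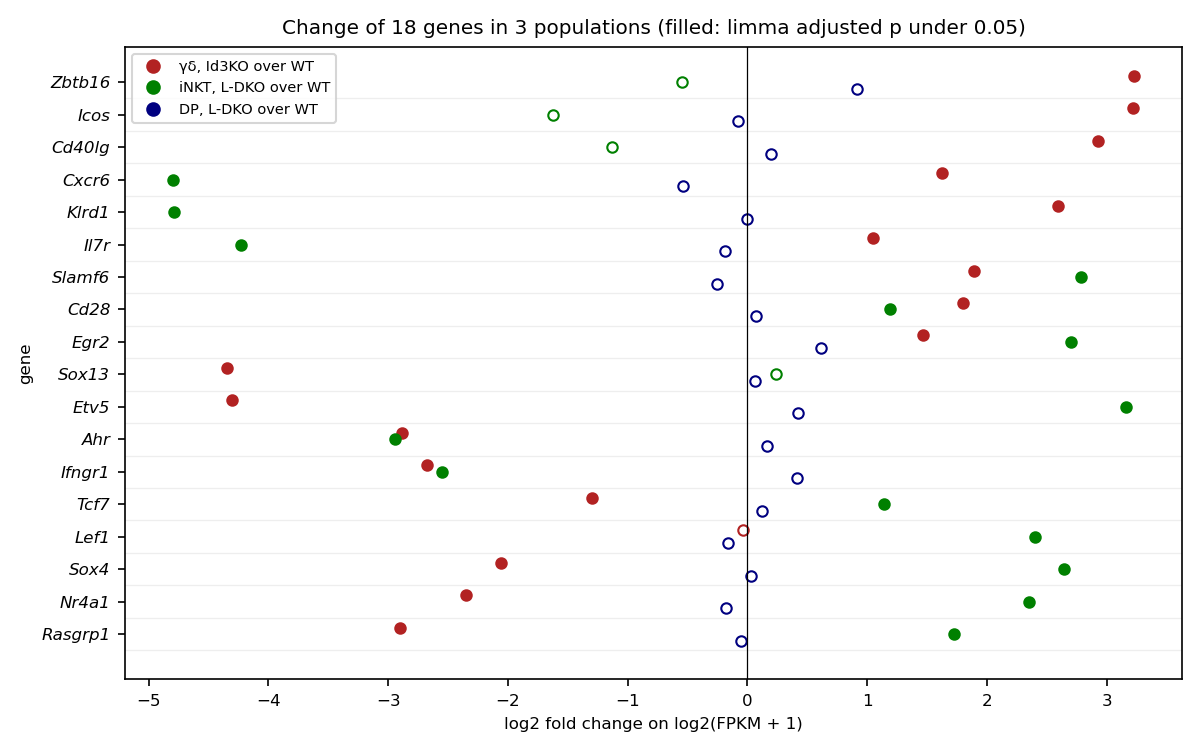
Log2 fold change (Id-deficient minus WT, log2(FPKM + 1) scale) of 18 genes in γδ, DP and iNKT cells, with filled symbols where limma's adjusted p is under 0.05. Etv5, Sox4, Tcf7, Rasgrp1 and Nr4a1 are negative in γδ and positive in iNKT cells, Klrd1, Cxcr6 and Il7r are positive in γδ and negative in iNKT cells, and most DP values lie near 0.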

How the data were processed

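RNA-seq libraries were made from sorted thymocytes after ribosomal RNA depletion by RNase H, with random priming and a stranded kit. The authors deposited log2 values of FPKM with 1 added, per gene and library. Per the submitters' processing notes, Cufflinks 2.2.0, TopHat2 2.0.9 and Trimmomatic 0.32 were used, with the builds GRCm38 and mm10. The gene annotation and the use of strand in counting were not given in the sources used here, so antisense and overlapping genes may share reads. Columns of the authors' means and fold changes were not used.

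The deposited log2 values were fitted with limma 3.58.1 in R 4.3.3, with 1 mean for each of 6 groups and 1 spread shared by all 11 libraries (5 residual degrees of freedom), and p-values were adjusted by Benjamini-Hochberg over 11815 entries at a threshold of 0.05. The code was tested on simulated data. Precision rested on the number of libraries, since the read depth was unknown. Alternatives were pseudocounts of 0.1 and 10, a mean of at least 1 FPKM, the γδ libraries alone, other scalings, limma's trend and each library left out. Removal of a trend on transcript length (GENCODE lengths) and removal of distal chromosome 16 and chromosome Y were chosen after seeing the data. Promoter windows and coordinates came from RefSeq (GRCm38.p6), where 10377 entries had their symbol and a further 618 had an earlier name.

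The named genes were Id2, Id3, receptor and CD3 genes, genes the study names, the 10 largest rises and falls among called genes of at least 10 FPKM with no overlap (without predicted genes, small RNA and segments), and up to 4 members of each list described. Some genes that this rule takes are not reported here. The members and lists were chosen with earlier results of these data known.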

Additional observations from a re-analysis of the deposited data

Results flagged for a closer look

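The test of the difference between the effect of Id3 loss in γδ thymocytes and that of Id2 and Id3 loss elsewhere called 298 entries against DP thymocytes and 780 against iNKT cells. The named genes it called are given here as log2 differences (effect in γδ minus effect in the other population). Since DP and iNKT cells lost Id2 as well as Id3, and WT iNKT cells had 1 library, what underlies these differences was not tested.

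Against DP thymocytes the γδ effect was more negative for Tmem121 (-5.67), Igfbp4 (-5.26), Etv5 (-4.72), Apoe (-4.66), Lyz2 (-4.43), Sox13 (-4.41), Ifngr1 (-3.10), Ahr (-3.04), Arpp21 (-3.01), Rasgrp1 (-2.84), Il10ra (-2.71), Dusp6 (-2.28), Cd247 (-2.20), Nr4a1 (-2.17), Sox4 (-2.08), Bmf (-1.99), Bcl2l2 (-1.82), Tcf7 (-1.42) and Tnfaip3 (-1.28). The same held for the δ segments Trdv2-2 (-5.32), Trdv2-1 (-4.84), Trdv1 (-4.21), Trav21-dv12 (-4.19), Trdv5 (-3.93), Trav15n-2 (-3.61) and Trav16d-dv11 (-2.90). It was more positive for mt-Atp8 (3.82), Bcl2a1b (3.80), Ntrk3 (3.79), Rnf43 (3.36), Id2 (3.35), Icos (3.29), Map2 (2.86), Cd40lg (2.74), Stc2 (2.29), Slamf6 (2.15) and Cd28 (1.73), and for the segments Trav15d-1-dv6d-1 (3.38) and Trav15n-1 (2.97).

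Against iNKT cells the γδ effect was more negative for Etv5 (-7.46), Igfbp4 (-6.33), Tmem121 (-5.96), Il6st (-5.12), Nr4a1 (-4.70), Sox4 (-4.70), Rasgrp1 (-4.63), Sox13 (-4.58), Id3 (-4.13), Arpp21 (-3.87), Bmf (-3.48), Bcl2l2 (-3.06), Apoe (-2.98), Themis (-2.79), Dusp6 (-2.78), Cd247 (-2.46), Lef1 (-2.44), Tcf7 (-2.43), Slamf1 (-2.15) and Il4ra (-2.02). It was so also for Trdv2-1 (-3.92), Trav21-dv12 (-3.72), Trdv2-2 (-3.40) and Trav15n-2 (-2.11). It was more positive for Id2 (10.81), which L-DKO cells lack by design, and for Klra9 (7.62), Klrd1 (7.38), Adam19 (7.27), Bcl2a1b (6.62), Cxcr6 (6.42), Bcl2a1a (5.66), Icos (4.84), Ly6c2 (4.60), Rnf43 (4.10), Cd40lg (4.06), Zbtb16 (3.77), F2rl1 (3.30), Ntrk3 (2.51), Stat4 (2.48) and Irf4 (1.70). The γ segments Tcrg-C2 (6.15), Tcrg-C1 (5.78), Tcrg-V4 (5.36) and Tcrg-C4 (4.17) had negative effects in iNKT cells, and none was called between the γδ genotypes.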

How the results depend on the processing

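The direction of all 1789 calls was kept in every alternative that tested them except quantile normalization, where 1786 kept it. Of the 803 higher and 986 lower calls, the γδ libraries alone gave 292 and 344, and removal of small RNA, segments and predicted genes gave 467 and 1657. Scaling to the same total gave 463 lower calls, and the difference from iNKT (780) became 1249 under that scaling and 1192 under that removal. Leaving out each library in turn gave 245 to 851 higher calls, 310 to 1070 lower calls, 51 to 562 differences from DP (main value 298) and 372 to 909 from iNKT. Without WT a, 530 of the calls remained, and without Id3KO b 678. Without L-DKO DP a or b there were 618 lower calls, with fewer libraries for the spread. Of 97 named genes 77 were called, and 51 kept their side of the threshold and their direction throughout. Sign changes occurred in uncalled genes: Cd3e was at -0.14 with quantile normalization and -0.012 without small RNA, segments and predicted genes, and Il2rb was at -0.065 and -0.086 in that order. Cd3g was at -0.063 with quantile normalization and -0.038 with the length trend removed. Lef1 was at 0.093 with the same total, 0.030 with a common median and 0.015 with the length trend removed. Leaving out libraries, Lef1 ranged from -0.12 to 0.055, Il2rb from -0.28 to 0.45, Trav15-1-dv6-1 from -0.88 to 1.40 and Trav14d-3-dv8 from -2.51 to 0.34. The cause of these changes was not tested. With 2 libraries a group, changes under 0.53 on the log2 scale were not called. No paired analysis was possible because the table's columns carry no replicate numbers.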

Other observations

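Replication-dependent histone genes, whose mRNAs lack a poly(A) tail, gave values outside the lists described above. Of 69 measured, 1 was called lower and none higher (1.45% and 0%, against 8.35% and 6.80% of all entries). All 69 had a negative sign, and their median log2 fold change was -0.85. Without Id3KO b the median was 0.021 with no call, and without Id3KO a it was -1.78 with 61 called lower. Id3KO b lay below Id3KO a by a median of 1.77 on the log2 scale. The small nucleolar RNA entries Snord49b and Snord82 were listed at 0 in both WT libraries and stood at 8160 and 7889 FPKM and at 11865 and 13281 FPKM in the Id3KO libraries. Of the Y-linked genes, Uty was at 0.13, 30.5, 4.63 and 202 FPKM in WT a, WT b, Id3KO a and Id3KO b.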
